A study of Rattus norvegicus with 30 samples.

Results

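The tubular injury markers are 10 genes whose transcripts are used to follow damage and repair of the kidney tubule: Havcr1, Lcn2, Spp1, Clu, Krt8, Krt18, Krt19, Sox9, Cd44 and Cdkn1a. They were taken by name from the deposited table, and all 10 were found among its 32545 genes. The libraries come from the right kidney of male Sprague-Dawley rats, an outbred strain, cut into cortex (Cx) and outer medulla (OM). Every rat ate the 0.4% NaCl diet (LS) first, and the HS groups were then fed 4.0% NaCl for 14 d (HS14) or 21 d (HS21). There were 5 libraries in each of the 6 groups of tissue and diet, 30 in all. The sources used here do not say for each library whether its rat had the catheter and flow probe surgery that the study describes, and the tissues are whole pieces that hold many cell types.

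When a tubule cell is damaged it loses its brush border and its transport genes, spreads over bare basement membrane and may divide to refill the gap. Havcr1 (kidney injury molecule 1) is a membrane receptor that injured proximal tubule cells use to take up dead cells, and its shed part appears in urine. Lcn2 is a secreted lipocalin that binds bacterial iron carriers and is also stored by neutrophils, Spp1 is the secreted matrix protein osteopontin, and Clu is the secreted chaperone clusterin. Krt8, Krt18 and Krt19 are keratins of simple epithelia, whose type II (Krt8) and type I (Krt18, Krt19) proteins pair to form filaments. Sox9 is a transcription factor of tubule progenitor and repair states, Cd44 is a receptor for hyaluronan and osteopontin that leukocytes also carry, and Cdkn1a encodes the cell cycle inhibitor p21.

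In the Rnor_6.0 build that the counts use, the secreted and shed markers lie at chr10:31813814-31848379 on the plus strand (Havcr1), chr3:11414186-11417546 on the minus strand (Lcn2), chr14:6673686-6679901 on the minus strand (Spp1) and chr15:42640146-42665857 on the plus strand (Clu). Krt8 at chr7:143596511-143603803 on the minus strand and Krt18 at chr7:143629455-143633131 on the plus strand point away from each other, with 25651 bases between them. Krt19 lies at chr10:88055841-88060561 on the minus strand, and its model overlaps that of Krt14 on the same strand, so that reads from the overlap are uncertain. Sox9 lies at chr10:101288489-101293379 on the plus strand, Cd44 at chr3:92696313-92783658 on the minus strand and Cdkn1a at chr20:6351458-6358864 on the plus strand. All 10 are annotated as protein coding, and each value is a sum over the exons of the gene.

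RefSeq promoter windows, read on the GRCr8 build, were matched for 7 of the 10 genes, and the 250 bases before the transcription start are shown for 4 of them. Lcn2 (chr3:36081781-36082030, minus strand) and Spp1 (chr14:5619805-5620054, minus strand) are shown because they were among the markers with the largest changes in Cx. Krt8 (chr7:135010340-135010589, minus strand) and Krt18 (chr7:135035918-135036167, plus strand) are shown because these filament partners moved in opposite directions. Each is written 5′ to 3′ on the strand of its gene, and capitals mark the matches to the motifs searched.
Lcn2: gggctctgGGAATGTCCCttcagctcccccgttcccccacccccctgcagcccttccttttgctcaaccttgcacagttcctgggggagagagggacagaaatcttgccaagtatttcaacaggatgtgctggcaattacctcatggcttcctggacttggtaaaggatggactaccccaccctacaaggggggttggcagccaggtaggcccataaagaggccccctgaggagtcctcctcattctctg
Spp1: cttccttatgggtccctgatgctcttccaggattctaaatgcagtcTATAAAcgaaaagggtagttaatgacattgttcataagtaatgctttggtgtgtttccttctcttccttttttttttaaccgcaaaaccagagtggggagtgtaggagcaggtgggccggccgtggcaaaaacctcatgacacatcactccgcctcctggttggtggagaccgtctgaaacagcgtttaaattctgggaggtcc
Krt8: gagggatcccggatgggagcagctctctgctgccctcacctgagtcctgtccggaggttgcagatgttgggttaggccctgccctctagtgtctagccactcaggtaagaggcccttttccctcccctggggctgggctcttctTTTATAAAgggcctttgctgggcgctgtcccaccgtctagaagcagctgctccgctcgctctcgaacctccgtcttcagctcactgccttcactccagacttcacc
Krt18: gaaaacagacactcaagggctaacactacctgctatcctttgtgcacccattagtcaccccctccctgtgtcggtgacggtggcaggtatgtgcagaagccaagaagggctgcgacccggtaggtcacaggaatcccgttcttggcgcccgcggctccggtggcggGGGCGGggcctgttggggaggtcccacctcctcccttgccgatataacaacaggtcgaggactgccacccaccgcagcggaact
The motifs, searched on both strands, were the kappaB element, the AP-1 element (TGANTCA), the STAT element (TTCNNNGAA), the GC box (GGGCGG) and the TATA box (TATAAA). The Lcn2 window held a kappaB match 242 bases before the start on the opposite strand, reading GGAATGTCCC on the printed one, and the motif was found in 3.54% of the 33469 rat windows of this length. Krt18 held a GC box 84 bases before the start, found in 30.5% of windows. TATA boxes, found in 12.9% of windows, stood 204 bases before the start in Spp1 and 104 bases before it in Krt8, where the match overlaps another on the opposite strand. No window of the 7 held the AP-1 letters (6.34% of all windows) or the STAT letters (7.67%). These matches describe the letters in the windows and were not tested for binding.

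Total counts ran from 12748841 to 21842843 per library, except for 5408126 in OM HS14 replicate 10. Levels are given as CPM, the counts scaled to the size and composition of each library. The defining markers followed the labelled tissues: Slc34a1, the proximal tubule phosphate transporter, was at 6220 to 6800 CPM in Cx on LS and at 127 to 4310 CPM in OM on LS, and Umod, the uromodulin gene of the thick ascending limb, was at 853 to 1420 and 7290 to 13600 CPM. OM LS replicate 2 stood apart. Its 17 proximal tubule markers summed to 19900 CPM, against 2800 to 8930 CPM in the other 4 libraries of its group, and its thick limb markers to 10800 CPM, against 17900 to 23700 CPM. Replicate 5 of that group lay at the other end, with the lowest proximal tubule sum (2800 CPM) and the highest thick limb sum (23700 CPM). Its distal tubule and collecting duct sum was 4160 CPM (others 1410 to 2140). Cx HS14 replicate 10 stood apart too, with a proximal tubule sum of 28500 CPM (others 36300 to 40100), a thick limb sum of 3550 CPM (others 2030 to 2230) and a distal tubule and collecting duct sum of 5580 CPM (others 3110 to 3780).

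On the LS diet, Cx held 3 abundant markers and 7 scarcer ones. Per kilobase of gene length, Spp1 stood at 115 ± 50.9 CPM per kb (SD, n = 5), Krt8 at 109 ± 10.9 CPM per kb and Clu at 77.3 ± 6.07 CPM per kb. Krt18 followed at 6.62 ± 0.636 CPM per kb and Cdkn1a at 4.15 ± 0.318 CPM per kb. The remaining 5 lay within their spread of each other, from Lcn2 at 2.57 ± 1.05 CPM per kb, through Cd44, Sox9 and Krt19, to Havcr1 at 1.19 ± 0.74 CPM per kb. Spp1 and Krt8 did not differ beyond their spread either. In OM, Spp1 stood alone at 1130 ± 640 CPM per kb, above Krt8 (60.9 ± 10.2 CPM per kb) and Clu (54.4 ± 8.7 CPM per kb), which did not differ beyond their spread. Krt18, Lcn2, Sox9, Krt19 and Cd44 followed with overlapping spreads, from 15.1 ± 7.44 to 5.57 ± 2.34 CPM per kb, and Cdkn1a (2.08 ± 0.413 CPM per kb) and Havcr1 (0.762 ± 0.46 CPM per kb) were lowest.

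The outer medulla carried a different profile on the LS diet. Of the 10 markers, 6 were higher in OM than in Cx on LS and 3 were lower (edgeR quasi-likelihood test, Benjamini-Hochberg adjusted p under 0.05 over all genes tested), where 21.3% of all 14295 genes tested were higher and 19.5% were lower. The median log2 ratio of OM to Cx was 1.28 over the markers and 0.03 over all genes. Spp1 showed the largest ratio. It stood at 310, 124, 158, 125 and 156 CPM in Cx and at 2320, 254, 1710, 1480 and 2820 CPM in OM, a log2 fold change of 3.28 (SE 0.55, adjusted p = 0.00093). Only OM replicate 2 fell among the Cx values, being below Cx replicate 1.

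Sox9 was at 3.1 to 7.7 CPM in Cx and at 14.5 to 72.2 CPM in OM, with a log2 fold change of 2.90 (SE 0.41, adjusted p = 0.000338). Krt19 was at 1.55 to 3.08 and 3.12 to 19.5 CPM, with a log2 fold change of 2.62 (SE 0.45, adjusted p = 0.00102). For both genes every OM library was above every Cx library, a pattern shown by 1885 of the 14295 genes tested. For Krt19 the lowest OM library, replicate 5, was just above the highest Cx library. Lcn2 (log2 ratio 2.32, SE 0.52, adjusted p = 0.00494), Cd44 (1.38, SE 0.35, adjusted p = 0.0095) and Krt18 (1.18, SE 0.34, adjusted p = 0.0179) were also higher in OM, with overlap between the tissues. The Krt18 call was lost with the replicate number as a block (1.03, adjusted p = 0.0545).

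Krt8, Cdkn1a and Clu were lower in OM, without overlap. Of the 14295 genes tested, 2275 had every OM library below every Cx library. Krt8 was at 183 to 230 CPM in Cx and 92.3 to 144 CPM in OM, a log2 fold change of -0.84 (SE 0.13, adjusted p = 0.000545). Cdkn1a was at 7.37 to 8.85 and 3.41 to 5.46 CPM, a log2 fold change of -1.0 (SE 0.15, adjusted p = 0.000415). Clu was at 130 to 159 and 83.2 to 121 CPM, a log2 fold change of -0.52 (SE 0.11, adjusted p = 0.00376). Havcr1 gave a log2 fold change of -0.65 (SE 0.53, adjusted p = 0.356), and its tissues overlapped. With scaling by total counts the median of all genes moved to 0.27, 5546 genes were higher and 1842 lower in place of 3051 and 2794, and Clu no longer passed (-0.26, adjusted p = 0.141).

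**Figure D1:**
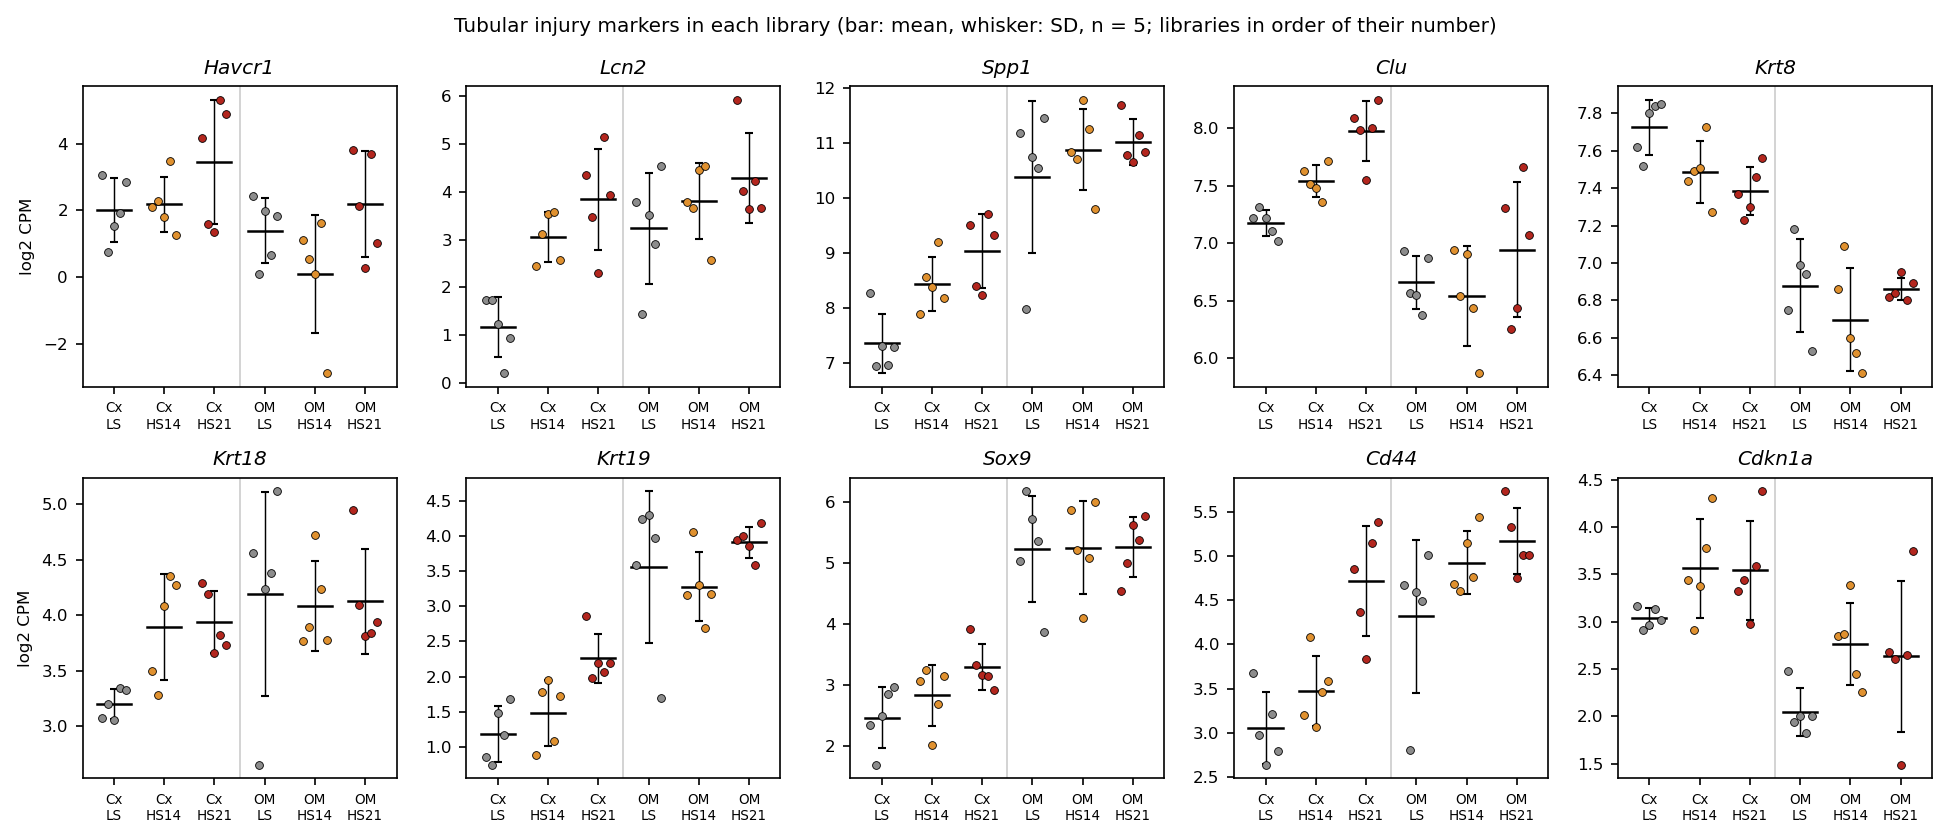
Each panel plots 1 marker, with log2 CPM (2 counts added as prior) on the y axis and the 6 groups of tissue and diet on the x axis; points are libraries, bars are group means and whiskers are SD (n = 5). In Cx, Lcn2 and Clu stand above all LS libraries at HS14 and HS21, while in OM the diet groups overlap for every marker, and the lowest Havcr1 point (OM HS14 replicate 10) is a count of 0.

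The first question was how the markers in Cx differed after 14 d of the HS diet. Lcn2 and Clu rose, Havcr1 did not pass, and the rest moved by amounts that did not pass the test over all genes. With 2 of 10 markers higher and 0 lower, the background was 1.14% of 14181 genes higher and 1.18% lower. The median log2 ratio was 0.38 over the markers and 0 over all genes. At an unadjusted p under 0.05, 5 markers were higher and 1 was lower, beside 1284 higher and 1178 lower of the 14181 genes. DESeq2 called 4 markers higher and 0 lower, beside 492 higher and 429 lower genes.

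Lcn2 was at 3.2, 3.18, 2.21, 1.02 and 1.8 CPM in Cx on LS and at 5.34, 8.48, 11.5, 11.8 and 5.8 CPM at HS14. All 5 HS14 libraries were above all LS libraries, and the log2 ratio was 1.90 (SE 0.32, adjusted p = 0.0152). Clu was at 149, 159, 149, 138 and 130 CPM on LS and at 198, 184, 179, 164 and 210 CPM at HS14, again without overlap, for a smaller log2 ratio of 0.35 (SE 0.08, adjusted p = 0.0486). Lcn2 and Clu were the 2 markers with every HS14 library above every LS library, a pattern shown by 3.06% of all genes. The Clu call was lost when any 1 library other than HS14 replicate 9 was left out (adjusted p 0.054 to 0.126), while Lcn2 kept its call in all 10 such fits.

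Spp1 was at 239, 378, 334, 590 and 291 CPM at HS14 and overlapped LS through replicate 1 of LS alone (log2 ratio 1.05, SE 0.28, adjusted p = 0.0731). Without that library the Spp1 ratio was 1.36 with an adjusted p of 0.0227. Krt18 went from 8.24, 9.08, 8.15, 9.99 and 9.88 CPM to 11.2, 9.57, 16.8, 20.3 and 19.2 CPM (log2 ratio 0.75, SE 0.20, adjusted p = 0.0716), and passed at 0.0196 without HS14 replicate 7. The other 6 had adjusted p from 0.133 for Krt8, the 1 marker with a clearly negative ratio (-0.25, SE 0.08), to 0.935 for Havcr1 (0.12, SE 0.48). Between these lay Cdkn1a at 0.60 (SE 0.22), Cd44 at 0.41 (SE 0.23), Sox9 at 0.35 (SE 0.27) and Krt19 at 0.30 (SE 0.27). Without replicate 10, the HS14 library that stood apart, the Cdkn1a ratio was 0.35.

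After 21 d, most of the markers in Cx were higher than on LS. The test called 7 higher (Lcn2, Spp1, Clu, Krt18, Krt19, Sox9 and Cd44) and 1 lower (Krt8), where 18.9% of 14299 genes were higher and 20.5% were lower. The median log2 ratio was 0.95 over the markers and 0 over all genes. Every HS21 library was above every LS library for 5 markers, a pattern shown by 12.6% of all genes. DESeq2 called all 10, with 9 higher and 1 lower, beside 2976 higher and 2899 lower genes. The HS14 and HS21 ratios share their LS libraries.

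Among the secreted and shed markers, Lcn2 changed most. At HS21 it was at 20.2, 11, 4.81, 35.3 and 15.2 CPM, all above LS, for a log2 fold change of 2.91 (SE 0.49, adjusted p = 0.000814), or 7.49-fold. Spp1 was at 727, 341, 303, 843 and 644 CPM, with only replicate 13 below the highest LS library (log2 ratio 1.70, SE 0.33, adjusted p = 0.00195). Clu was at 272, 254, 187, 255 and 305 CPM, all above LS (log2 ratio 0.80, SE 0.11, adjusted p = 0.000268).

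Havcr1 split the HS21 libraries. It was at 8.24, 1.55, 2.74, 3.65 and 7.18 CPM on LS and at 18, 2.87, 2.4, 39.6 and 29.5 CPM at HS21. Replicates 11, 14 and 15 were above every LS library, while replicates 12 and 13 lay within the LS range. The log2 ratio was 1.96 (SE 0.73, adjusted p = 0.0509), just outside the threshold, and it passed without replicate 12 (2.26, adjusted p = 0.0204) or without replicate 13 (2.24, adjusted p = 0.0158).

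The keratins did not move as 1 group. Krt18 was at 19.4, 18.1, 12.5, 14 and 13.1 CPM at HS21, all above LS (log2 ratio 0.75, SE 0.14, adjusted p = 0.00135). Krt19 went from 1.68, 1.55, 2.66, 2.11 and 3.08 CPM on LS to 7.15, 3.81, 4.46, 4.07 and 4.42 CPM, also without overlap (log2 ratio 1.09, SE 0.24, adjusted p = 0.00422). Krt8, the most abundant keratin of the 3, fell from 197, 183, 223, 229 and 230 CPM to 165, 150, 158, 175 and 188 CPM, where the top HS21 library overlapped the lowest LS library (log2 ratio -0.36, SE 0.08, adjusted p = 0.00391).

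The ratio of Krt8 to its partner Krt18 was set per kilobase in each library. The log2 ratio was 4.07, 3.83, 4.26, 4.01 and 4.03 on LS, 3.45, 3.72, 2.93, 2.87 and 2.5 at HS14, and 2.58, 2.54, 3.15, 3.14 and 3.33 at HS21 in Cx. All 10 HS libraries were below all 5 LS libraries. The means were 4.04 ± 0.16, 3.09 ± 0.49 and 2.95 ± 0.36 (SD, n = 5). In OM the ratio was already lower on LS and more variable, at 2.19 ± 1.16, and stood at 2.11 ± 0.56 at HS14 and 2.23 ± 0.50 at HS21. OM LS replicate 2, at 4.05, was the 1 OM library inside the Cx LS range.

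**Figure D2:**
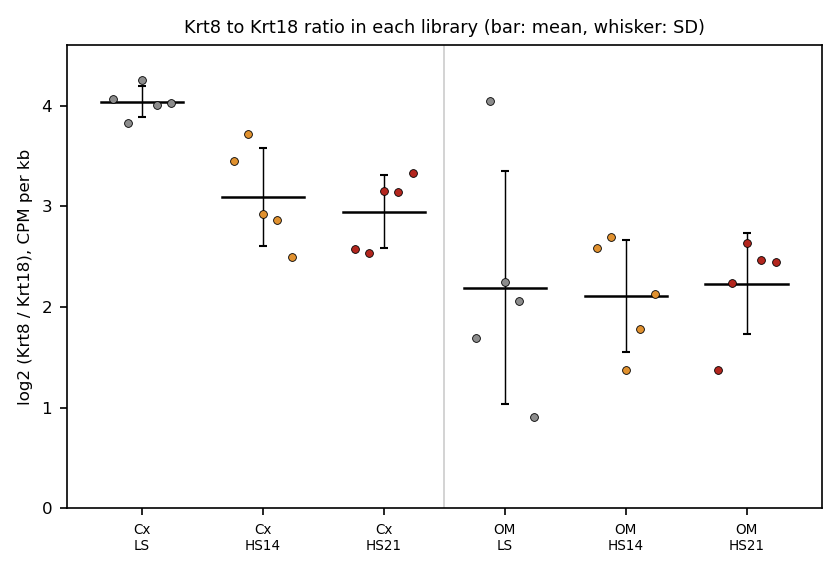
The y axis is the log2 ratio of Krt8 to Krt18 in CPM per kilobase and the x axis gives the 6 groups; points are libraries, bars are means and whiskers are SD (n = 5). In Cx all HS14 and HS21 points lie below the LS points, which span 3.83 to 4.26, and in OM the groups overlap.

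Among the repair and cell cycle markers, Cd44 changed most, with a ratio close to that of Spp1. It was at 12.6, 7.68, 6.09, 9.11 and 6.8 CPM on LS, 9.03, 16.7, 8.21, 10.9 and 11.9 CPM at HS14, and 28.7, 20.5, 14.1, 35.2 and 41.5 CPM at HS21. The HS21 libraries were all above LS (log2 ratio 1.71, SE 0.29, adjusted p = 0.000799). Sox9 went from 4.96, 3.1, 5.48, 7.07 and 7.7 CPM to 15.1, 9.95, 8.86, 8.74 and 7.49 CPM, with 1 HS21 library inside the LS range (log2 ratio 0.81, SE 0.25, adjusted p = 0.0228). The Sox9 call was lost without LS replicate 1 (adjusted p = 0.0526) or without HS21 replicate 11 (adjusted p = 0.0531).

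Cdkn1a was at 8.85, 7.37, 7.69, 8.6 and 7.95 CPM on LS and at 9.83, 10.7, 7.76, 11.9 and 20.6 CPM at HS21. Replicate 13 lay within LS and the other 4 were above it (log2 ratio 0.57, SE 0.22, adjusted p = 0.0609), and the gene passed at 0.02 without that library. Replicate 13 was the lowest HS21 library in Cx for 7 of the 10 markers. With total counts the median of all genes moved to 0.13 and the split to 4401 higher and 1653 lower, in place of 2702 and 2936. Under that scaling, whose ratios include the shift, Krt8 was still lower (-0.23). Havcr1 (2.1) and Cdkn1a (0.7) passed there (adjusted p = 0.0379 and 0.0266).

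**Figure D3:**
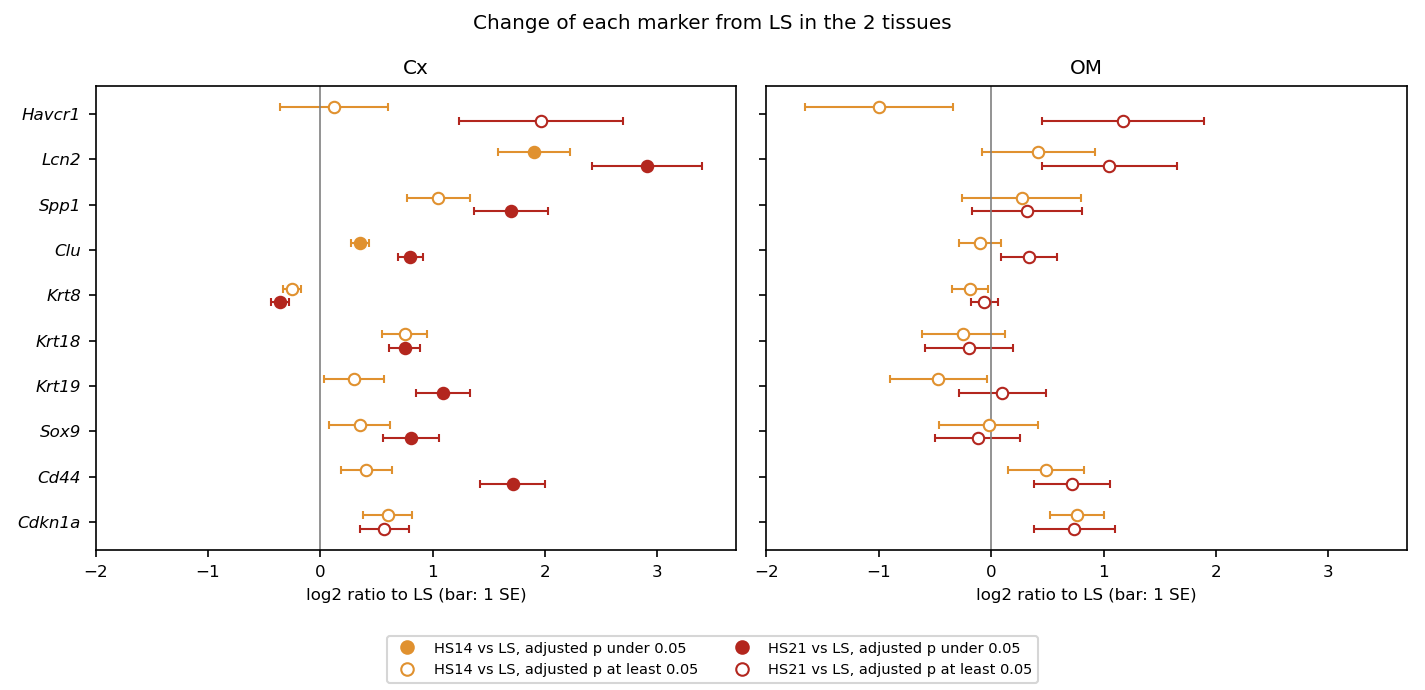
The x axis is the log2 ratio to LS with 1 SE, for Cx on the left and OM on the right, and the y axis lists the 10 markers; orange is HS14, red is HS21, and filled points have an adjusted p under 0.05. In Cx 2 points at HS14 and 8 at HS21 are filled, and in OM none are.

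The libraries of 14 and 21 d were also set against each other in Cx. Clu (log2 ratio 0.45, SE 0.12, adjusted p = 0.0287) and Cd44 (1.31, SE 0.28, adjusted p = 0.014) rose further, making 2 of 10 higher and 0 lower against 6.5% and 9.69% of 14395 genes. Cd44 kept its call in all 10 fits that left out 1 library, while Clu lost it in 6 of them, without HS14 replicate 7, 8 or 9 or HS21 replicate 11, 14 or 15 (adjusted p 0.0583 to 0.074). Krt19 was above HS14 in every HS21 library but gave an adjusted p of 0.0586 (log2 ratio 0.79, SE 0.26). It passed with DESeq2 (adjusted p = 0.0231), with total counts (0.0332) and with all libraries of the tissue in the fit (0.0365). DESeq2 called 3 markers in all, each higher, beside 1478 higher and 1801 lower genes.

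Krt18 and Cdkn1a gave log2 ratios near 0, at 0.00 (SE 0.22, adjusted p = 0.997) and -0.03 (SE 0.30, adjusted p = 0.96). Lcn2 (1.01, SE 0.43, adjusted p = 0.128) and Havcr1 (1.84, SE 0.72, adjusted p = 0.0977) did not pass. Both passed without HS21 replicate 13 (adjusted p = 0.0313 and 0.039). With total counts, 2084 genes were higher and 644 lower, in place of 935 and 1395.

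In OM, edgeR called 0 of the 10 markers at HS14 and 0 at HS21, and DESeq2 also called 0 at both times. With edgeR the background was small as well, at 0.00694% of 14417 genes at HS14 and 0.769% of 14555 genes at HS21. DESeq2 called 109 genes at HS14 and 701 at HS21. At an unadjusted p under 0.05 there was 1 marker at HS14 (Cdkn1a, higher), beside 617 higher and 209 lower genes. At HS21 there were 0 markers, beside 1012 higher and 625 lower genes. The median log2 ratio of the markers was -0.06 at HS14 and 0.33 at HS21. HS21 against HS14 gave 0 marker calls by either tool, beside 0% of 14499 genes with edgeR and 27 genes with DESeq2. There, 2 markers were higher at an unadjusted p under 0.05 (Havcr1 and Krt19), beside 337 higher and 210 lower genes.

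Cdkn1a was at 5.46, 3.69, 3.87, 3.41 and 3.87 CPM in OM on LS, 7.09, 7.2, 10.3, 5.34 and 4.65 CPM at HS14, and 6.27, 5.97, 2.68, 6.14 and 13.3 CPM at HS21. Most HS libraries were above LS, with overlap at both times (log2 ratio 0.76, SE 0.24, adjusted p = 0.594 at HS14, and 0.74, SE 0.36, adjusted p = 0.499 at HS21). Cd44 was at 25.3, 6.88, 24, 22.3 and 32.1 CPM on LS and at 53.1, 39.9, 26.8, 32.2 and 32.1 CPM at HS21 (log2 ratio 0.72, SE 0.34, adjusted p = 0.487).

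Lcn2 in OM was at 13.6, 2.6, 11.2, 7.32 and 22.9 CPM on LS, 13.6, 12.4, 21.9, 23.1 and 5.85 CPM at HS14, and 60.5, 15.9, 12.2, 18.6 and 12.4 CPM at HS21. Except for replicate 11, the HS21 libraries lay within the LS range (log2 ratio 1.05, SE 0.60, adjusted p = 0.592). Havcr1 was at 5.34, 0.923, 3.8, 1.45 and 3.39 CPM on LS and at 13.9, 4.28, 1.08, 12.9 and 1.89 CPM at HS21, so that replicates 11 and 14 stood above LS (log2 ratio 1.17, SE 0.72, adjusted p = 0.635). At HS14 it was at 2.04, 1.33, 0.924 and 2.92 CPM and at a count of 0 in replicate 10, which allows up to 0.516 CPM (3 counts).

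Spp1 in OM was at 1820, 1680, 3550, 2450 and 896 CPM at HS14 and at 3320, 1770, 1610, 2280 and 1820 CPM at HS21, both overlapping LS (log2 ratio 0.27, SE 0.53, and 0.32, SE 0.49). Krt18 (-0.20, SE 0.39), Krt8 (-0.06, SE 0.12), Krt19 (0.10, SE 0.39), Sox9 (-0.12, SE 0.38) and Clu (0.34, SE 0.25) likewise overlapped LS at HS21, with adjusted p from 0.72 to 0.973. The SE of these 5 ratios was 0.12 to 0.39 in OM and 0.08 to 0.25 in Cx.

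Whether the change differed between the tissues was tested directly as a tissue by diet interaction, the OM ratio minus the Cx ratio. At HS14 it called 0 of 10 markers, against 0% of 15091 genes. At an unadjusted p under 0.05 there were 3 markers, each with a negative difference (Lcn2, Clu and Krt18). Over all genes there were 281 positive and 278 negative at that level. At HS21 it called 0 of 10 markers, against 0.665% of 15194 genes. At an unadjusted p under 0.05, 1001 genes were positive and 1366 negative, beside 4 negative markers. These were Lcn2 (difference in log2 ratio -1.88, SE 0.82, adjusted p = 0.278), Spp1 (-1.39, SE 0.63, adjusted p = 0.292), Krt18 (-0.96, SE 0.43, adjusted p = 0.291) and Cd44 (-1.0, SE 0.47, adjusted p = 0.31). DESeq2 called 0 markers at both times, beside 9 genes at HS14 and 556 genes at HS21. The median difference at HS21 was -0.94 over the markers and -0.06 over all genes.

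OM LS replicate 2, the library with the high proximal tubule sum, weighed on this test. Without it, Spp1 (-1.65, adjusted p = 0.0351) and Krt18 (-1.17, adjusted p = 0.0305) passed at HS21 and the count over all genes went from 101 to 1275. The other 8 markers did not pass with or without it.

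Other genes of injured or repairing tubule cells, listed with earlier results of these data known, were counted beside the markers. Of 28 tested in Cx at HS21, 16 were higher and 4 lower, with a median log2 ratio of 0.82, beside 18.9% and 20.5% of all genes. At HS14, 1 was higher and 0 lower, beside 1.14% and 1.18% of all genes. Ccl2, a chemokine that draws monocytes, rose by 1.45 on the log2 scale (SE 0.31, adjusted p = 0.00354). Fgb, a fibrinogen chain (1.40, SE 0.44, adjusted p = 0.0249), also rose, while Nrg1, a growth factor for ERBB receptors, fell by 1.29 on the log2 scale (SE 0.20, adjusted p = 0.000544). In OM at HS21, 0 of 27 passed, beside 0.769% of all genes.

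Around Cdkn1a, 5 of 16 p53 targets and cell cycle inhibitors were higher in Cx at HS21 and 3 were lower, with a median log2 ratio of 0.05. Of all genes tested, 18.9% were higher and 20.5% were lower. Fas, a death receptor (0.79, SE 0.24, adjusted p = 0.0201), and Cdkn1c, which encodes the inhibitor p57 (0.66, SE 0.12, adjusted p = 0.000979), were higher, and Zmat3 was lower (-0.77, SE 0.15, adjusted p = 0.00181). At HS14 0 of 16 passed, beside 1.14% of all genes higher and 1.18% lower.

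Among 21 ligands, receptors and relatives of the markers, 7 were higher and 4 lower in Cx at HS21, beside 18.9% and 20.5% of all genes. Itga4, an integrin chain that binds osteopontin (1.75, SE 0.33, adjusted p = 0.00168), and Has3, a hyaluronan synthase (1.04, SE 0.18, adjusted p = 0.000869), were higher. Lrp2, the proximal tubule receptor megalin that takes up filtered lipocalin (-0.99, SE 0.08, adjusted p = 1.56e-05), and Itga9, another osteopontin-binding integrin chain (-0.68, SE 0.18, adjusted p = 0.0115), were lower. At HS14, 2 of 22 passed, both higher, beside 1.14% of all genes higher.

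The markers moved beside a change in the cell type markers of the same cortical libraries. Fewer cells of a type and less RNA per cell cannot be told apart in such tissue pieces. Of 17 proximal tubule markers tested, 17 were lower at HS21 (median log2 ratio -0.74), beside 20.5% of all genes. Their sum went from 38800 to 44300 CPM on LS to 28500 to 40100 CPM at HS14 and 22100 to 27800 CPM at HS21. Of 17 leukocyte markers tested, 17 were higher at HS21 (median 1.78), beside 18.9% of all genes, and 8 at HS14 (median 0.69), beside 1.14%. The leukocyte sums were 238 to 292 CPM on LS, 309 to 495 CPM at HS14 and 435 to 1390 CPM at HS21. None of the 19 leukocyte genes found was at 0 throughout a group. Their part in the marker changes was not tested.

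The sum of 10 neutrophil genes in Cx, 7 of which were too low to be tested against LS, was 13.4 to 20 CPM on LS. It was 22.1 to 59.1 CPM at HS14 and 31.3 to 92 CPM at HS21. Much of this sum was Ncf1, with means of 13.7 CPM on LS, 21 CPM at HS14 and 48.4 CPM at HS21. S100a9, a calcium-binding protein that neutrophils hold in bulk, was at 0.153 to 0.51 CPM on LS (2 to 7 counts, so that it passed the filter through the HS libraries), 1.03 to 14 CPM at HS14 and 1.72 to 4.56 CPM at HS21. Against LS, the 3 genes tested were all called higher at HS14, beside 1.14% of all genes, and at HS21, beside 18.9%. Csf3r gave log2 ratios of 1.64 (SE 0.3, adjusted p = 0.0211) and 1.93 (SE 0.25, adjusted p = 0.00016). Those of Ncf1 were 0.6 (SE 0.13, adjusted p = 0.0444) and 1.8 (SE 0.28, adjusted p = 0.000535). Between HS14 and HS21 in Cx, 6 genes of the list were tested, with a median log2 ratio of -0.2. Of these, 1 was called, Ncf1, which was higher at HS21 (log2 ratio 1.2, SE 0.27, adjusted p = 0.016). S100a9 (-0.7, SE 0.58, adjusted p = 0.426) and Csf3r (0.29, SE 0.3, adjusted p = 0.53) did not pass. The part of neutrophils in the Lcn2 change was not tested. Within HS21, Cx replicate 13 held both the lowest leukocyte sum (435 CPM) and the lowest level of 7 markers, and it had the highest proximal tubule sum of its group (27800 CPM).

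The markers of other cell types were counted in Cx at HS21, where 18.9% of all genes were higher and 20.5% lower. There, 12 of 13 distal tubule and collecting duct markers were higher (median 0.80), as were 4 of 8 thick limb markers, with 1 lower, and 3 of 5 thin limb markers, with 1 lower. Of 8 podocyte and parietal markers 5 were higher, of 8 endothelial markers 3 and of 9 fibroblast markers 1. Urothelial genes, which would mark the lining of the renal pelvis, summed to at most 1.03 CPM in Cx and 12.1 CPM in OM. In OM at HS21, 0 of 17 proximal tubule markers passed and 4 of 18 leukocyte markers were higher, beside 0.769% of all genes called. The leukocyte sums in OM were 133 to 488 CPM on LS and 583 to 966 CPM at HS21.

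**Figure D4:**
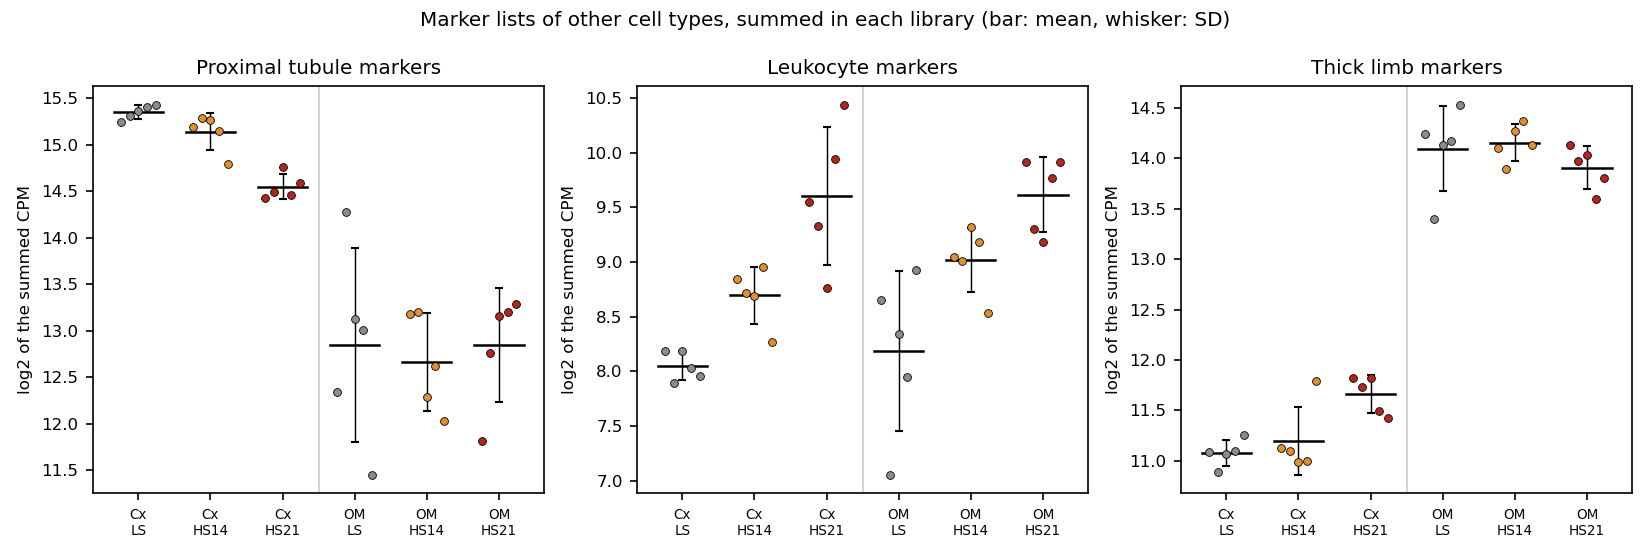
The y axis is the log2 of the summed CPM of the proximal tubule, leukocyte and thick limb marker lists and the x axis gives the 6 groups; points are libraries, bars are means and whiskers are SD (n = 5). In Cx the proximal tubule sum is lowest and the leukocyte sum highest at HS21, and OM LS replicate 2 stands above its group in the proximal tubule panel.

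Within the diet groups, some markers varied together across the 15 Cx libraries. Pearson correlations of the log2 CPM deviations from the group means, which share depth and tissue composition within a library, were computed for 45 pairs as a description. The median r was 0.15, and the range was -0.34 to 0.86. The highest values were for Havcr1 with Spp1 (0.86), Lcn2 with Spp1 (0.78), Havcr1 with Cd44 (0.69) and Spp1 with Cd44 (0.68). By the same measure, the genes nearest to Havcr1 among 13344 other protein-coding genes were Mnda (0.96), Nipsnap3b (0.95) and Eed (0.91), and those nearest to Lcn2 were C5ar1 (0.88), Pdzd9 (0.88) and Birc3 (0.87). For Spp1 they were PVR (0.89), Smurf2 (0.87) and Clec4a (0.86), and for Cd44 they were Heca (0.94), Tcf7 (0.89) and Gpnmb (0.88).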

How the data were processed

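The authors made poly(A) libraries, aligned clean read pairs to Rnor_6.0 with HISAT2 2.0.5 and counted reads per gene with featureCounts 1.5.0-p3, without strand. The deposited counts are raw and were the values used. The deposited table also holds FPKM values that the authors computed from the counts, and the authors' group means, log2 fold changes and p-values, none of which were used here.

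Genes passing filterByExpr in the groups compared were tested with the quasi-likelihood test of edgeR 4.0.16 (R 4.3.3; TMM scaling; Benjamini-Hochberg adjustment over all genes tested; threshold 0.05). All 10 markers passed the filter in every comparison. Each SE is the log2 ratio divided by the root of its F value. CPM used TMM over all 30 libraries. DESeq2 1.42.0, other scalings, no filter, other sample sets and the replicate number as a block were alternatives, and the code was tested on simulated data. The labels do not say that libraries are from separate animals, so p-values measure the spread between these samples. No 2 libraries of a group were copies (lowest ratio of their difference to counting noise 7.29 over 60 pairs).

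The markers and the gene lists were chosen with earlier results of these data known. Of 200 listed symbols 194 were found. From each list the up to 4 genes of largest change among those called in Cx at HS21, with a mean of at least 1 CPM, could be named, besides the defining cell type markers, and for likeness the 3 protein-coding genes nearest to each marker. Some genes that this rule names are not reported here.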

Additional observations from a re-analysis of the deposited data

Results flagged for a closer look

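Each marker was screened in each of the 6 groups for 1 library whose gap to the next exceeded 0.71 of the range of log2 CPM (60 sets of 5 libraries). Chance alone would give about 1 in 20, or 3, and 8 were found. In OM on LS, replicate 2 was low for Spp1 at 254 CPM (others 1480 to 2820) and for Cd44 at 6.88 CPM (others 22.3 to 32.1), and this is the library with the high proximal tubule sum. Replicate 5 of that group was low for Krt19 at 3.12 CPM (others 11.9 to 19.5), and replicate 1 was high for Cdkn1a at 5.46 CPM (others 3.41 to 3.87). In OM at HS21, replicate 11 was high for Lcn2 at 60.5 CPM (others 12.2 to 18.6) and for Krt18 at 30.8 CPM (others 13.9 to 16.9). In Cx, replicate 1 on LS was high for Spp1 at 310 CPM (others 124 to 158), and replicate 11 at HS21 was high for Krt19 at 7.15 CPM (others 3.81 to 4.46).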

How the results depend on the processing

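Over 1570 marker values recomputed under alternatives, no called value changed direction, and 47 uncalled values changed sign. Of 10 markers, Cx HS14 against LS called 4 with DESeq2, 1 with total counts, 1 with all libraries of the tissue in the fit, and 1 to 2 when 1 library was left out, in place of 2. Leaving out 1 library gave 7 to 10 in place of 8 for Cx HS21 against LS, 1 to 4 in place of 2 for Cx HS21 against HS14, and 0 to 2 in place of 0 for the HS21 interaction. It gave 0 throughout for the 3 OM comparisons and the HS14 interaction, and 9 throughout for OM against Cx on LS.

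The study describes kidneys cut into both tissues, so Cx and OM libraries of a diet group can share rats. No label ties equal replicate numbers to the same rat. Of 15 Cx libraries, 13 correlated best with their own number in OM, and 12 of the 15 correlations of deviations were over 0.1 (-0.08 to 0.51). The main tests did not pair the tissues and treat their libraries as independent. With the replicate number as a block, OM against Cx on LS called 8 of 10 markers, without Krt18 (1.03, adjusted p = 0.0545), and 5011 genes in place of 5845, and the interactions called 0 markers and 0 (HS14) or 94 (HS21) genes.

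Counts over all genes depended on the tool: DESeq2 called 921 in place of 330 (Cx HS14), 109 in place of 1 (OM HS14), 701 in place of 112 (OM HS21), 27 in place of 0 (OM HS21 against HS14), and 9 in place of 0 and 556 in place of 101 for the interactions. With total counts OM HS21 gave 44, and with all libraries of the tissue 199. With no filter on low counts the HS21 interaction gave 58. Leaving out 1 library gave 85 to 471 genes for Cx HS14, 1029 to 3524 for Cx HS21 against HS14, 9 to 175 for OM HS21 and 42 to 1275 for the HS21 interaction. Leaving out OM LS replicate 2 and OM HS14 replicate 10 together, chosen after seeing the data, gave 0 markers at HS14 in OM and in the interaction, and 6 genes in OM. The shallow OM HS14 replicate 10 limits Havcr1 and Cdkn1a, at 0 and 27 counts there. The mapping statistics of the study also give this library the lowest mapped share and the lowest share in exons of all libraries. That limit applies to every marker at HS14 in OM.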
